A study of Homo sapiens with 9 samples.

Results

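The human mitochondrial genome (mtDNA) carries 37 genes, and all 37 were present among the 60308 gene IDs counted in this series. They were taken by symbol, as every gene whose symbol starts with MT-, and all 37 IDs matched the reference annotation. They comprise 13 mRNAs for subunits of the respiratory chain and of ATP synthase, 2 rRNAs of the mitochondrial ribosome and 22 tRNAs. RNA came from 9 cultures of MCF10A.PM, which is the immortalised breast epithelial line MCF10A carrying ectopic MYC (pBABE-hygro-MYC) and a mutant PI3K (pMN-IRES-GFP-PI3KH1047R). Each culture also held an inducible hairpin: pLKO-tetON-puro-shG9a 1 (shG9a1), pLKO-tetON-puro-shG9a 4 (shG9a4) or the scrambled pLKO-tetON-puro-shSCR (shSCR), with 3 replicates each. All 9 cultures, shSCR included, received 2 µg/mL doxycycline for 72 hours, so the design has no culture without the drug, without ectopic MYC or without PI3KH1047R. The design text calls the replicates biological, and the question it states is what knockdown of G9a, the histone methyltransferase encoded by EHMT2, does to the transcriptome.

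Each strand of mtDNA is transcribed as a long precursor by the single-subunit polymerase POLRMT with the factors TFAM and TFB2M, and the tRNAs that lie between the mRNAs and rRNAs mark where the precursor is cut. The heavy-strand transcript yields 12 mRNAs, both rRNAs and 14 tRNAs, and the light-strand transcript yields MT-ND6 and 8 tRNAs. mtDNA carries no histones, and the stability of its mRNAs depends on nuclear-encoded proteins, LRPPRC among them. Doxycycline is known to inhibit the mitochondrial ribosome.

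The libraries were stranded, depleted of rRNA with a reagent that also targets mitochondrial rRNA, and sequenced as read pairs of 75 bases, with 53065611 to 76958831 pairs assigned to genes. EHMT2 had 17.6, 22.6 and 21.0 CPM (reads per 1000000 gene reads, scaled between libraries) in shG9a1 and 32.1, 27.2 and 33.5 CPM in shG9a4, against 51.1, 45.2 and 45.4 CPM in shSCR. In edgeR its log2 fold change was −1.21 in shG9a1 (adjusted p = 0.00766) and −0.61 in shG9a4 (adjusted p = 0.259, or 0.0907 with the replicate number as a block), so only the shG9a1 value passed the threshold of 0.05. All 10 basal breast epithelial markers on the list were detected in every library, with KRT5 at 1841 to 3209 CPM. The immune list summed to 1.99 to 6.27 CPM in shG9a1 and 3.04 to 4.81 CPM in shG9a4, against 2.89 to 4.30 CPM in shSCR, and nearly all of it was CD14, while PTPRC reached only 0.0732 CPM. The endothelial list summed to 2.12 to 2.98 CPM in shG9a1 and 1.76 to 2.22 CPM in shG9a4, against 1.40 to 1.99 CPM in shSCR, most of it TEK and KDR, while CDH5 reached 0.0633 CPM. The part of these markers in the results was not tested. The fibroblast list summed to 197 to 421 CPM in shG9a1 and 140.0 to 417 CPM in shG9a4, against 159 to 337 CPM in shSCR, and nearly all of it was DCN, which ranged over all libraries from 135 to 413 CPM.

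The 13 mitochondrial mRNAs together took well under 1% of the reads in genes. Their share was 0.587, 0.579 and 0.544% in the shG9a1 replicates 1, 2 and 3 and 0.537, 0.602 and 0.824% in the shG9a4 replicates, against 0.603, 0.489 and 0.700% in the shSCR replicates. The highest share was that of shG9a4 replicate 3, the shSCR share was lowest in replicate 2, and the 3 groups overlapped. The 95% Wilson interval of each share was at most 0.00242 percentage points to either side, which covers counting error only. Counting error was therefore far smaller than the spread between replicates. The means were 0.570 ± 0.0227% in shG9a1 and 0.654 ± 0.151% in shG9a4, against 0.597 ± 0.106% in shSCR (SD, n = 3 each). In RNA from whole cultures, a change in which cells make up the culture and a change in RNA per cell cannot be told apart.

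The mRNAs of the 3 core subunits of cytochrome c oxidase (complex IV), all encoded by mtDNA, dominated this pool. MT-CO1, MT-CO2 and MT-CO3 together held 84.9 to 88.2% of the mitochondrial mRNA reads in each library. MT-CO1, the subunit that holds the site of oxygen reduction, was at 2471, 2311 and 2273 CPM in shG9a1 and at 2282, 2459 and 3239 CPM in shG9a4, against 2442, 1948 and 2952 CPM in shSCR. MT-CO2, which takes electrons from cytochrome c, was at 935, 907 and 833 CPM in shG9a1 and at 812, 936 and 1213 CPM in shG9a4, against 890.2, 769 and 1048 CPM in shSCR. MT-CO3 was at 1783, 1768 and 1665 CPM in shG9a1 and at 1698, 1902 and 2412 CPM in shG9a4, against 1914, 1473 and 2016 CPM in shSCR. For all 3 genes the highest of the 9 libraries was shG9a4 replicate 3, the next was shSCR replicate 3 and the lowest was shSCR replicate 2, so each knockdown group lay within or across the range of shSCR.

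**Figure D1:**
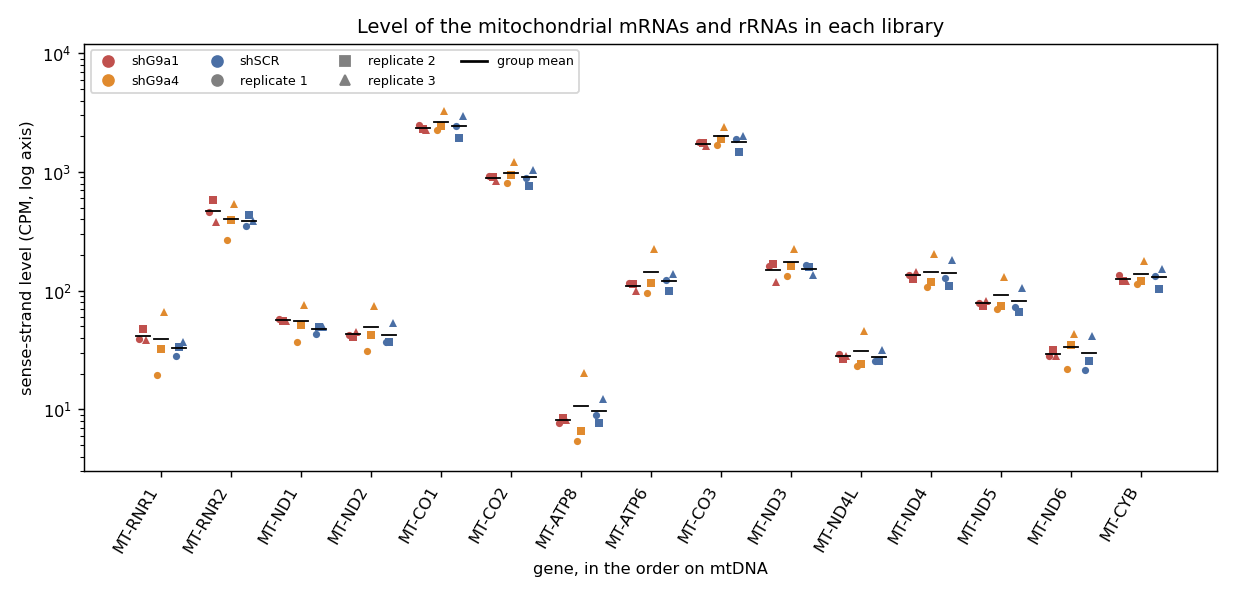
Sense-strand level in CPM (log axis) of the 13 mitochondrial mRNAs and 2 rRNAs in each of the 9 libraries, in the order of the genes on mtDNA, with points for replicates and black bars for group means (n = 3). The MT-CO genes lie between 769 and 3239 CPM and MT-ATP8 between 5.37 and 20.3 CPM, and the triangle of shG9a4 (replicate 3) is the highest point of that group for all 15 genes.

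The genes of complex I, the NADH dehydrogenase at the entry of the respiratory chain, were read at far lower levels. MT-ND1, in the part of the membrane arm where ubiquinone binds, had 57.9, 55.3 and 55.5 CPM in shG9a1 and 37.3, 51.7 and 76.3 CPM in shG9a4, against 43.4, 49.3 and 49.0 CPM in shSCR. MT-ND2, a proton-pumping subunit, had 42.5, 40.9 and 45.1 CPM in shG9a1 and 31.3, 42.5 and 73.6 CPM in shG9a4, against 37.2, 37.2 and 52.9 CPM in shSCR. The 3 shG9a1 values of MT-ND1 all exceeded the shSCR values, whereas those of MT-ND2 did not. MT-ND3 had 162, 166 and 119 CPM in shG9a1 and 132, 163 and 224 CPM in shG9a4, against 165, 158 and 135 CPM in shSCR, and it was the only mRNA whose shSCR replicate 3 was the lowest of its group. MT-ND3 forms a membrane subunit of complex I with a loop that moves as the enzyme switches between states.

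MT-ND4L and MT-ND4 share 7 bases and are translated from a single bicistronic mRNA. MT-ND4L, a small membrane subunit, had 29.3, 26.7 and 28.0 CPM in shG9a1 and 23.04, 24.1 and 45.7 CPM in shG9a4, against 25.7, 25.4 and 31.3 CPM in shSCR. MT-ND4, a proton-pumping subunit, had 137, 126 and 143 CPM in shG9a1 and 108, 119 and 205 CPM in shG9a4, against 127, 109.9 and 183 CPM in shSCR. For both genes shG9a4 replicate 3 was the highest of all libraries, shSCR replicate 3 the next and shG9a4 replicate 1 the lowest. MT-ND5, another pumping subunit, had 78.8, 74.2 and 82.3 CPM in shG9a1 and 70.5, 74.4 and 131 CPM in shG9a4, against 72.5, 65.5 and 105 CPM in shSCR. MT-ND6, the membrane subunit encoded on the other strand, had 28.2, 31.7 and 28.1 CPM in shG9a1 and 22.0, 34.5 and 43.1 CPM in shG9a4, against 21.4, 25.6 and 41.7 CPM in shSCR. The shG9a1 values of MT-ND5 and MT-ND6 lay inside the range of shSCR.

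Complex III has a single mitochondrially encoded subunit, cytochrome b, and ATP synthase (complex V) has 2, both in its membrane part. MT-CYB, the cytochrome b gene, had 135, 120.4 and 122 CPM in shG9a1 and 115, 119.7 and 179 CPM in shG9a4, against 134, 103 and 152 CPM in shSCR. MT-ATP6, the subunit that passes protons to the rotor, had 116, 114 and 98.9 CPM in shG9a1 and 95.2, 115 and 224 CPM in shG9a4, against 123, 99.2 and 139 CPM in shSCR. The reading frame of MT-ATP8 overlaps that of MT-ATP6 on the same mRNA. The reference sequence of MT-ATP8 (GENCODE 29, GRCh38, chromosome M, heavy-strand transcript) is printed with the 46 bases that also belong to MT-ATP6 in capitals, because pairs that touch both genes are counted for neither:
MT-ATP8: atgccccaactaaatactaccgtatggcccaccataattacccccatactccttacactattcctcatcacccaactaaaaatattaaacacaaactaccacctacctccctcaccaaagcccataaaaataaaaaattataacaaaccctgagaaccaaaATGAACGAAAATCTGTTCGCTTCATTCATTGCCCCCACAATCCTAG
MT-ATP8 has 207 bases in all. The gene, which encodes a small subunit of the stator, had 7.68, 8.42 and 8.15 CPM in shG9a1 and 5.37, 6.54 and 20.3 CPM in shG9a4, against 8.92, 7.66 and 12.3 CPM in shSCR. Its highest library was 3.78 times its lowest, the widest ratio among the mRNAs, and the narrowest was 1.58 times for MT-CO2.

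Per length, the levels of the mRNAs differed widely. Averaged over the 9 libraries, sense reads came to 2357 CPM per kilobase for MT-CO3, 1612 for MT-CO1 and 1355 for MT-CO2. MT-ND3 followed with 457 CPM per kilobase, MT-ATP6 with 184 and MT-CYB with 115. The remaining 7 lay between 43.0 CPM per kilobase for MT-ND2 and 101 for MT-ND4. MT-CO3 was thus 54.8-fold above MT-ND2 on this scale. How far these levels depend on which pairs could be placed and counted was not tested beyond the values that follow. In the reference transcripts, 36.6% of the 75-base windows of MT-CO1, 34.4% of MT-ND2, 28.0% of MT-ATP6, 16.3% of MT-ND1, 14.6% of MT-CO3 and 10.5% of MT-CO2 also occur exactly in the transcript of another gene. No such window was found for MT-ND3, MT-ND4L, MT-ND4, MT-CYB or MT-ATP8. The layout of the counts holds pairs that map to a single place, so counts of genes with such windows are uncertain. Those other genes are chiefly nuclear pseudogenes of mtDNA, of which 404 were counted and 88 had a read. They summed to 1044 to 1847 reads per library, and the 5 highest were MTATP6P1 with 584 to 1206 reads, MTCO1P12 with 208 to 331, MTND2P28 with 107 to 168, MTCO3P12 with 14 to 45 and MTCO2P12 with 3 to 28.

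The rRNAs were read despite the depletion, at 0.0283 to 0.0629% of gene reads. MT-RNR1, the 12S rRNA of the small ribosomal subunit, had 39.2, 47.2 and 38.5 CPM in shG9a1 and 19.6, 32.4 and 66.1 CPM in shG9a4, against 28.4, 33.5 and 36.8 CPM in shSCR. MT-RNR2, the 16S rRNA of the large subunit, had 459, 578 and 382 CPM in shG9a1 and 266, 395 and 535 CPM in shG9a4, against 349, 431 and 390.3 CPM in shSCR. All 3 shG9a1 values of MT-RNR1 lay above those of shSCR, while those of MT-RNR2 overlapped them. Both rRNAs were targets of the depletion, and its part in these values was not tested.

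The tRNA genes, of 59 to 75 bases, are no longer than a read, and they were barely counted on their own strand, with 524 to 933 reads per library over all 22. Of the 22, 7 had no read in any library (MT-TL1, MT-TK, MT-TG, MT-TR, MT-TH, MT-TS2 and MT-TL2), which allows up to 0.0390 to 0.0565 CPM per library. A further 7 (MT-TF, MT-TV, MT-TI, MT-TM, MT-TN, MT-TC and MT-TD) had at most 18 reads in a library and did not pass the filter on low counts. The other 8 were tested. All 13 mRNAs and both rRNAs also passed, which makes 23 of the 37 genes tested. MT-TP, MT-TS1 and MT-TY, the tRNAs for proline, serine (UCN codons) and tyrosine, are shown because they had the most reads on the strand opposite to the gene, and the capitals mark the anticodon (GENCODE 29, GRCh38, chromosome M, light-strand transcripts):
MT-TP: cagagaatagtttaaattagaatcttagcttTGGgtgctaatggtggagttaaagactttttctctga
MT-TS1: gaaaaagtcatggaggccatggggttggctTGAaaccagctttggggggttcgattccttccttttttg
MT-TY: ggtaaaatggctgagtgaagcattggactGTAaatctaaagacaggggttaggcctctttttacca
Among the tRNA genes MT-TP had the highest sense-strand CPM, at 6.85, 6.86 and 4.45 CPM in shG9a1 and 5.09, 7.63 and 8.68 CPM in shG9a4, against 5.40, 6.05 and 6.70 CPM in shSCR. A full read of 75 bases cannot lie within this gene of 68 bases, so this need not be the rank of the mature tRNAs. MT-TS1 had 0.701, 0.841 and 0.742 CPM in shG9a1 and 0.763, 0.886 and 2.09 CPM in shG9a4, against 0.525, 0.545 and 0.763 CPM in shSCR. MT-TY had 0.506, 0.590 and 0.909 CPM in shG9a1 and 0.657, 0.728 and 1.48 CPM in shG9a4, against 0.725, 0.493 and 0.9496 CPM in shSCR. The highest library of MT-TP, MT-TS1 and MT-TY was again shG9a4 replicate 3. The remaining tested tRNAs carry threonine (MT-TT), tryptophan (MT-TW), glutamine (MT-TQ), alanine (MT-TA) and glutamate (MT-TE). MT-TT had 0.930, 1.121 and 1.32 CPM in shG9a1 and 0.657, 0.839 and 1.14 CPM in shG9a4, against 0.741, 0.922 and 1.40 CPM in shSCR. MT-TW had 0.913, 1.03 and 0.946 CPM in shG9a1 and 0.828, 1.14 and 1.25 CPM in shG9a4, against 0.633, 1.31 and 0.614 CPM in shSCR. The groups overlapped for both genes. MT-TQ had 0.587, 0.457 and 0.520 CPM in shG9a1 and 0.631, 0.570 and 1.08 CPM in shG9a4, against 0.478, 0.532 and 0.801 CPM in shSCR. MT-TA had 0.359, 0.221 and 0.520 CPM in shG9a1 and 0.263, 0.269 and 0.677 CPM in shG9a4, against 0.247, 0.286 and 0.484 CPM in shSCR. MT-TE, the lowest of the 8, had 0.179, 0.428 and 0.186 CPM in shG9a1 and 0.263, 0.237 and 0.293 CPM in shG9a4, against 0.154, 0.286 and 0.223 CPM in shSCR.

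The opposite strand was read over several of these genes. Over all genes, 4.94 to 5.26% of the strand-assigned reads lay opposite to the annotated gene. For MT-CO2 and MT-CO3 the sense share, pooled over the 9 libraries, was 98.8% for each gene. For MT-ND5 it was 45.8%, ranging from 40.8 to 49.3% in single libraries, and for MT-CYB it was 52.9%, ranging from 46.4 to 59.0%. On mtDNA these 2 genes flank MT-ND6 and MT-TE, which are read from the other strand. The sense share of MT-ND6 itself was 85.6%. The pooled sense shares of the remaining mRNAs lay between 83.8% for MT-ND4 and 97.7% for MT-ND3, and the rRNAs were at 95.9% (MT-RNR1) and 93.2% (MT-RNR2). The 95% Wilson half-widths of single libraries were at most 1.86 percentage points for any mRNA.

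Reads counted over light-strand tRNA genes lay mostly on the heavy-strand transcript, opposite to the gene. The pooled sense share was 3.67% for MT-TS1, 5.14% for MT-TY, 22.7% for MT-TP, 25.9% for MT-TE and 40.2% for MT-TQ, and among the 8 light-strand tRNAs the sense strand held the larger number of reads only for MT-TA, at 69.0%. Among heavy-strand tRNAs the opposite strand also held more reads for MT-TI (sense share 33.3%) and MT-TD (11.4%), both with few reads. The sense strand held more for MT-TT (80.5%), MT-TW (74.2%), MT-TM, MT-TF and MT-TV, the last 3 with very few reads. In single libraries the 95% Wilson half-widths reached 31.2 percentage points for MT-TI, 17.2 for MT-TA and 1.32 for MT-TS1. Pairs that touch neighbouring genes on the same strand are counted for neither. A pair over neighbours on different strands can be counted as sense for the gene and as opposite-strand for its neighbour. These tRNA shares therefore depend on the genes beside each tRNA, and that part was not tested. Opposite-strand reads over MT-TS1, whose sequence is given above, came to 23.05, 25.0 and 20.8 CPM in shG9a1 and 20.2, 27.1 and 25.999 CPM in shG9a4, against 19.2, 18.8 and 21.0 CPM in shSCR. Averaged per length, that is 324 CPM per kilobase. MT-TP and MT-TY had 322 and 213 CPM per kilobase on the opposite strand. These 3 genes, of 66 to 69 bases, are shorter than a read of 75 bases. Pairs that lie only partly in them are counted, so these values per kilobase cannot be set beside those of the mRNAs.

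**Figure D2:**
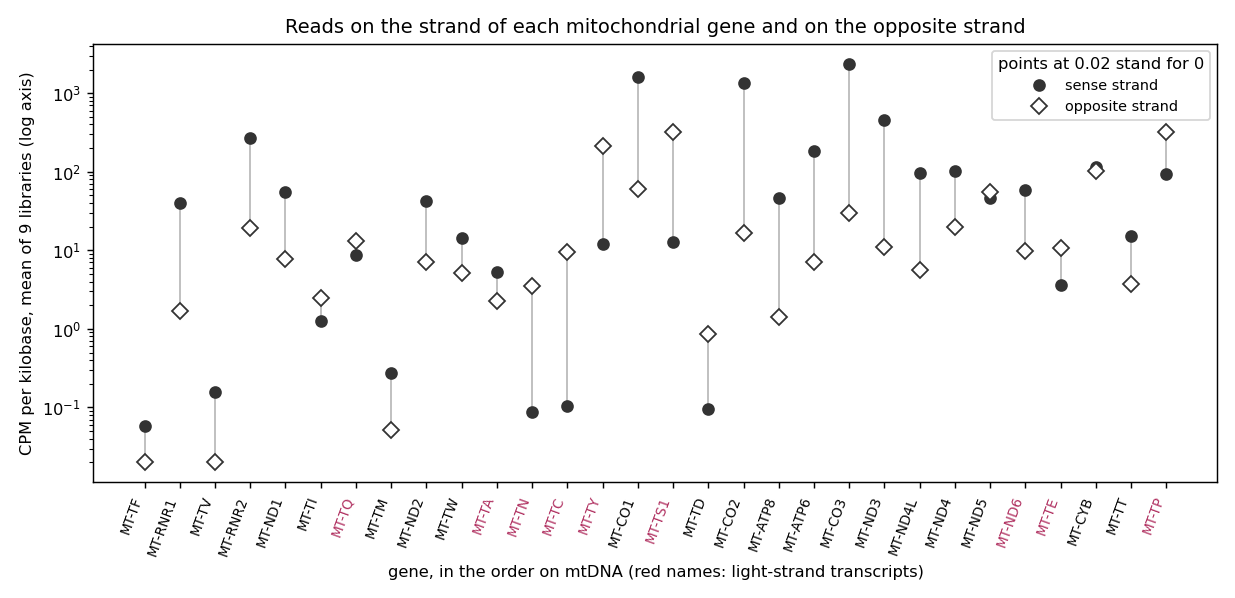
Mean reads over 9 libraries in CPM per kilobase (log axis) on the annotated strand (filled circles) and on the opposite strand (open diamonds) for the 30 mitochondrial genes with a read, in their order on mtDNA, with light-strand genes named in red. MT-ND5 and MT-CYB show nearly equal values on both strands, and MT-TY, MT-TS1 and MT-TP lie higher on the opposite strand. The tRNA genes are no longer than a read, so their values per kilobase cannot be set beside those of longer genes.

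None of the 23 tested genes passed the threshold in shG9a1 against shSCR. In edgeR, 0 of 23 had an adjusted p under 0.05, where 0.038% of all 18435 genes tested did, and 0 of 23 had an unadjusted p under 0.05, where 7.5% of all genes did. DESeq2 and limma voom also called 0, where they called 0.391% and 0.038% of all genes. Each had 0 of the 23 at an unadjusted p under 0.05, and DESeq2 gave no adjusted p for 2 of the 23. Log2 fold changes lay below 0 for 10 of the 13 mRNAs, with a median of −0.05, where the median of all genes was 0.00. The values were −0.06 ± 0.15 for MT-CO1, −0.02 ± 0.14 for MT-CO2, −0.05 ± 0.14 for MT-CO3 and −0.05 ± 0.17 for MT-CYB (± SE). Without shSCR replicate 3 the median of the 13 mRNAs was 0.10, and 10 of the 13 lay above 0. The largest value among the mRNAs was 0.25 ± 0.19 for MT-ND1, with an adjusted p of 0.828 in edgeR. MT-RNR1 had 0.34 ± 0.33 and an adjusted p of 0.871. These are the 2 of 23 genes whose shG9a1 libraries did not overlap those of shSCR, where 14.7% of all genes had such groups.

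In shG9a4 against shSCR, 0 of 23 genes were called in edgeR, where 0.0271% of all genes were. Of the 23, 1 gene, MT-TS1, had an unadjusted p under 0.05, where 2.38% of all genes did. DESeq2 and limma voom also called 0, where they called 0.114% and 0.0271% of all genes. Each had 1 gene of the 23 at an unadjusted p under 0.05. DESeq2 gave no adjusted p for 7 of the 23, which it therefore could not call. All 13 mRNAs had a log2 fold change above 0, from 0.04 ± 0.23 for MT-ND4 to 0.26 ± 0.26 for MT-ATP6, with a median of 0.17, where the median of all genes was 0.00. The values were 0.12 ± 0.15 for MT-CO1, 0.13 ± 0.14 for MT-CO2 and 0.15 ± 0.14 for MT-CO3. The common sign depended on the libraries and tool used. Without shG9a4 replicate 3, 12 of the 13 mRNAs lay below 0, and their median was −0.14. Without shSCR replicate 1, 11 of the 13 lay above 0, and without shSCR replicate 2, 10 did. With limma voom and with the replicate block, 12 of the 13 lay above 0. MT-TS1 had 1.02 ± 0.36 (adjusted p = 1.00 in edgeR), from 34 to 114 reads per library, and 0.45 without shG9a4 replicate 3. No gene of the 23 had shG9a4 libraries apart from those of shSCR, where 6.43% of all genes did.

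Between the hairpins, shG9a4 against shG9a1, edgeR called 0 of 23 genes and 0% of all genes. At an unadjusted p under 0.05 there were 0 of 23 in edgeR, DESeq2 and limma voom, where edgeR gave 4.09% of all genes. Log2 fold changes lay above 0 for 12 of the 13 mRNAs, with a median of 0.18, and at −0.10 without shG9a4 replicate 3. No gene of the 23 had groups that did not overlap, where 9.17% of all genes did. The members were less precise than the average gene: the median SE of the 23 was 0.25 in each hairpin against shSCR, where it was 0.15 over all genes.

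**Figure D3:**
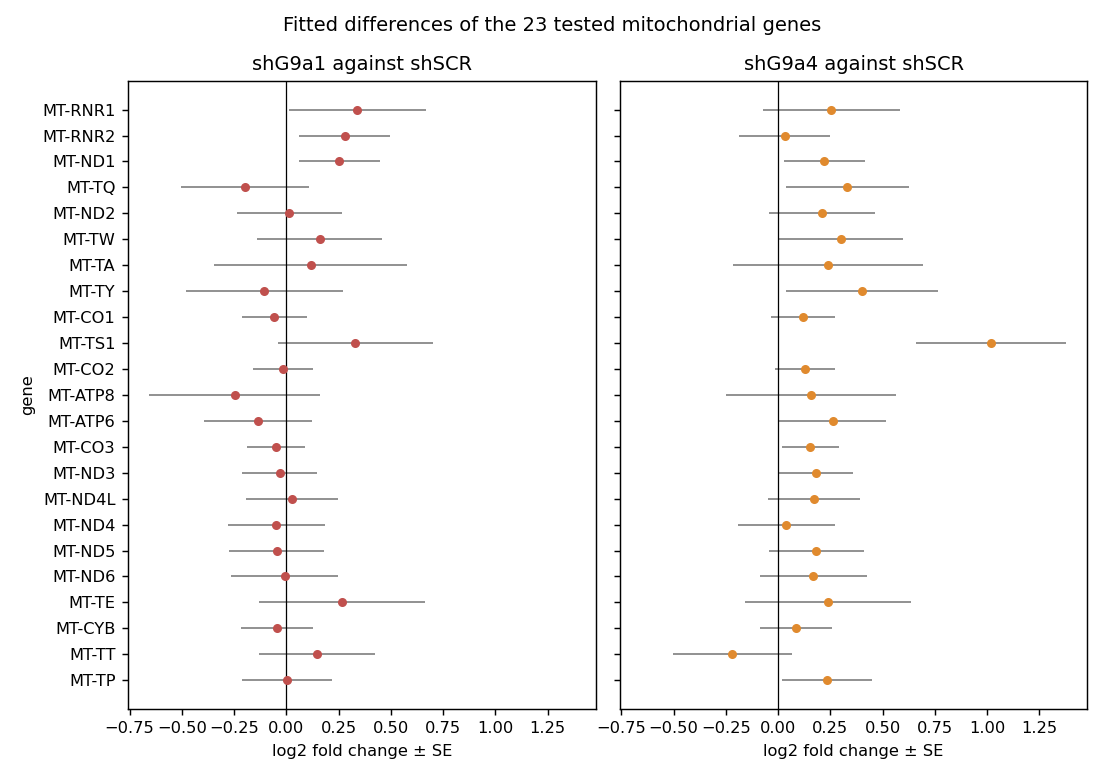
Log2 fold change with its SE (edgeR, n = 3 per group) of the 23 tested mitochondrial genes in shG9a1 against shSCR (left) and in shG9a4 against shSCR (right). The mRNAs lie from −0.25 to 0.25 on the left and from 0.04 to 0.26 on the right, and MT-TS1 at 1.02 stands apart on the right.

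On the opposite strand, edgeR called 0 of 26 mitochondrial genes in either hairpin, as it did 0% of the 9996 genes tested there. DESeq2 and limma voom also called 0. At an unadjusted p under 0.05 there were 0 of 26 in shG9a1 and 1 of 26 in shG9a4 with each of the 3 tools, where edgeR gave 2.97% and 1.38% of all genes. That gene in edgeR was MT-TS1, with a log2 fold change of 0.22 ± 0.12 in shG9a1 and 0.31 ± 0.12 in shG9a4 (adjusted p = 1.00 in edgeR for each). Opposite-strand reads over MT-ND5 came to 94.4, 97.9 and 94.2 CPM in shG9a1 and 76.4, 108 and 139 CPM in shG9a4, against 74.6, 86.2 and 117 CPM in shSCR. Those over MT-CYB came to 107, 106 and 103 CPM in shG9a1 and 88.2, 113 and 206 CPM in shG9a4, against 93.1, 97.3 and 143 CPM in shSCR. Replicate 3 was highest in shG9a4 and in shSCR for both genes, as on the sense strand. The sense share of MT-ND6 averaged 85.5 ± 2.10% in shG9a1 and 85.7 ± 2.59% in shG9a4, against 85.3 ± 1.85% in shSCR (SD, n = 3 each). It differed by 0.193 percentage points in shG9a1 and by 0.371 in shG9a4 (exact two-sided permutation test, p = 0.8 each, where 3 against 3 cannot go below 0.1).

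Libraries of a group differed from each other for most of these genes. In shG9a4, replicate 3 was the highest of its group for all 23 tested genes. In shSCR it was the highest for 18 of the 23, 11 of the 13 mRNAs among them. In shG9a1 it was the highest for 6 of the 23 and the lowest for 9. The share of reads in the 10 mRNAs other than MT-CO1, MT-CO2 and MT-CO3 was 0.0779, 0.0769 and 0.0722% in the shG9a1 replicates 1, 2 and 3 and 0.0632, 0.0747 and 0.124% in the shG9a4 replicates, against 0.0762, 0.0683 and 0.0913% in the shSCR replicates. The shG9a1 libraries differed little from each other on this measure, and replicate 3 stood apart in shG9a4.

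**Figure D4:**
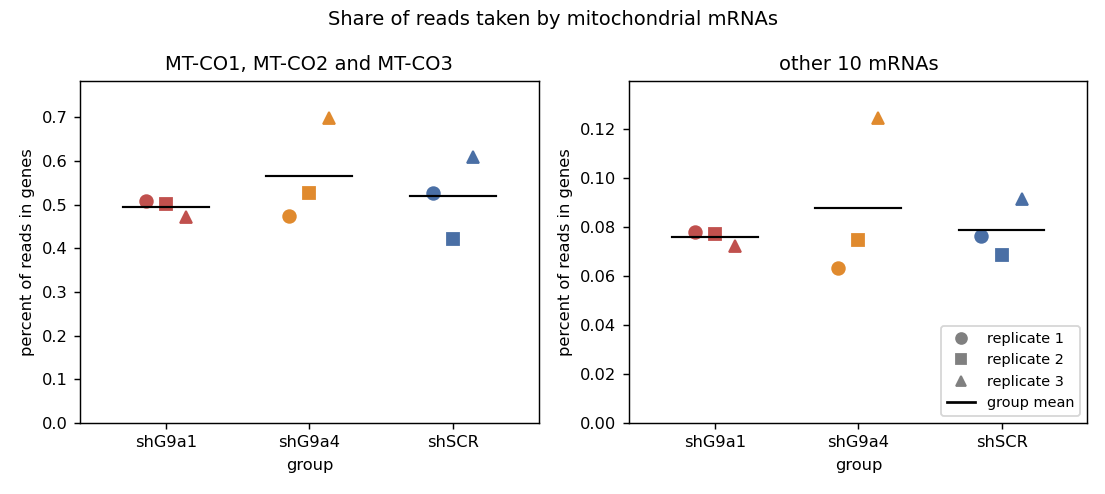
Share of reads in genes, in percent, taken by MT-CO1, MT-CO2 and MT-CO3 (left) and by the other 10 mitochondrial mRNAs (right) in each library, with symbols for the replicate number and bars for group means (n = 3). Replicate 3 is highest in shG9a4, at 0.700% and 0.124%, and in shSCR, at 0.609% and 0.0913%, but lowest in shG9a1, at 0.472% and 0.0722%.

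A fit with group and replicate number as terms gave the test of the number over all 9 libraries. In edgeR it called 3 of the 23 genes, where it called 7.47% of all genes. They were MT-ND4 (adjusted p = 0.0223), MT-ND5 (0.0231) and MT-TY (0.0438). DESeq2 called MT-ND4 and MT-CYB but neither MT-ND5 (adjusted p = 0.0542) nor MT-TY (0.105), and gave no adjusted p for 1 gene. Limma voom called MT-ND4 and MT-ND5 but not MT-TY (adjusted p = 0.0519). Averaged over the groups, replicate 3 exceeded replicate 1 by 0.51 for MT-ND4, by 0.51 for MT-ND5 and by 0.81 for MT-TY on the log2 scale. In these averages replicate 3 lay above replicate 1 for all 23 genes, with a median of 0.42, and above replicate 2 for 18 of 23, with a median of 0.40, where the medians of all genes were 0.00 for both. The averages for MT-CO1, MT-CO2 and MT-CO3 were 0.22, 0.22 and 0.16 for replicate 3 against replicate 1. Within shG9a4, replicate 3 lay above replicate 1 for all 23 genes, and within shSCR for 21. Within shG9a1 it did so for only 10 of the 23, and for 4 of the 13 mRNAs. At an unadjusted p under 0.05 there were 13 of the 23 genes, where 23.2% of all genes passed. No gene was called without shG9a4 replicate 3, without shSCR replicate 2 or without shSCR replicate 3. Unmapped read pairs came to 4.31% in shG9a4 replicate 3, 4.34% in shSCR replicate 3 and 3.67% in shG9a1 replicate 3. The libraries of replicates 1 and 2 lay between 2.75 and 3.21%. In each group, replicate 3 also had the fewest gene reads and the largest share of multimapped pairs. Multimapped pairs were 5.41% in shG9a1, 5.49% in shG9a4 and 5.36% in shSCR replicate 3. The share of the 13 mRNAs in shG9a1 replicate 3, 0.544%, was the lowest of its group. The share of pairs outside any gene was highest in shG9a4 replicate 3, at 15.4%. The labels tie the numbers to no day or batch, and the part of these properties in the levels was not tested.

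**Figure D5:**
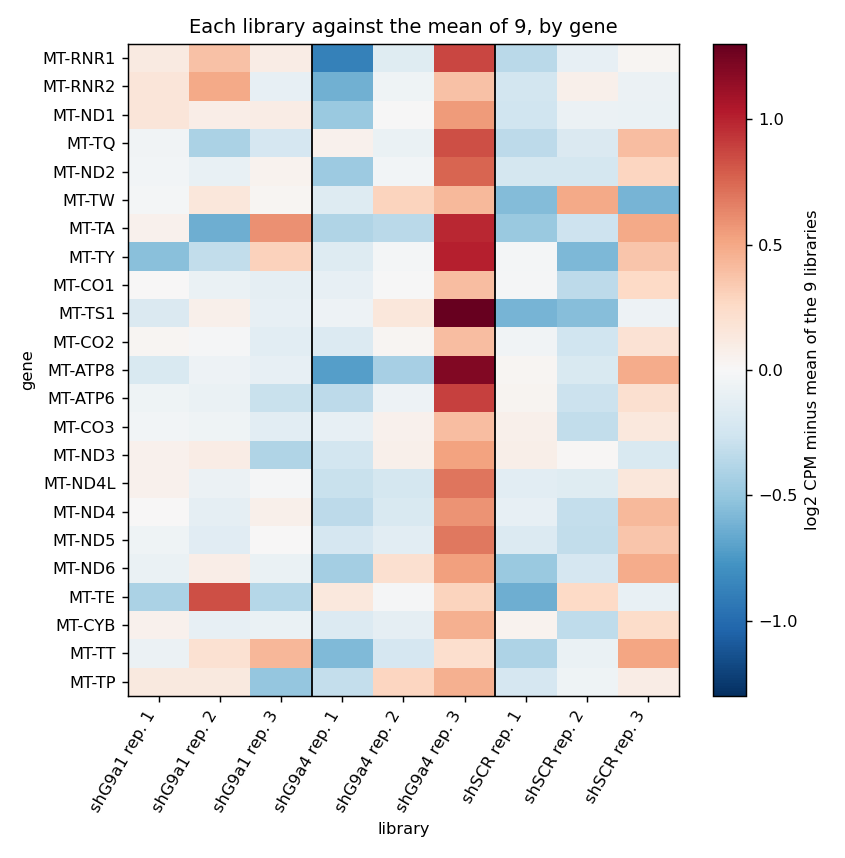
Log2 CPM of the 23 tested mitochondrial genes in each library minus the mean of the 9 libraries, with red for above and blue for below. The column of shG9a4 replicate 3 is red for all 23 genes, and that of shG9a4 replicate 1 is blue for most of them.

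The nuclear genes that transcribe, copy, process and stabilise mtDNA-encoded RNA were taken as a list of 54, all tested. In edgeR 0 of 54 were called in either hairpin, where 0.038% of all genes were called in shG9a1 and 0.0271% in shG9a4. At an unadjusted p under 0.05 there were 4 of 54 in shG9a1 and 0 of 54 in shG9a4, where 7.5% and 2.38% of all genes passed. The median log2 fold change was −0.05 in shG9a1, with 44 of 54 below 0, and −0.02 in shG9a4, with 37 of 54 below 0. Of all 18435 genes, 9173 lay below 0 in shG9a1 and 9062 in shG9a4, with medians of 0.00. The directions of the list were not tested as a set. TFAM, which packages mtDNA and starts its transcription, had 212, 190.2 and 196 CPM in shG9a1 and 229, 228 and 189 CPM in shG9a4, against 241, 226 and 206 CPM in shSCR. Its log2 fold change was −0.17 ± 0.09 in shG9a1 (adjusted p = 0.719 in edgeR) and −0.06 ± 0.09 in shG9a4. POLRMT, the polymerase, had 0.05 ± 0.17 in shG9a1 and −0.02 ± 0.17 in shG9a4. LRPPRC, which stabilises mitochondrial mRNAs, had −0.03 ± 0.07 in shG9a1 and 0.00 ± 0.07 in shG9a4. The smallest p-values in shG9a1 were those of TFB1M, which methylates the 12S rRNA, at −0.25 ± 0.09 (adjusted p = 0.611 in edgeR), of RPUSD4, a pseudouridine synthase of the 16S rRNA, at −0.16 ± 0.06 (0.622), and of LIG3, the DNA ligase of mitochondria, at −0.21 ± 0.09 (0.638).

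The 75 nuclear-encoded subunits of complexes I, III, IV and V, the partners of the mitochondrially encoded proteins, were also all tested. In edgeR 0 of 75 were called in either hairpin, with 0 of 75 at an unadjusted p under 0.05 in shG9a1 and 1 of 75 in shG9a4. Over all genes, 0.038% were called in shG9a1 and 0.0271% in shG9a4, and 7.5% and 2.38% had such an unadjusted p. The median log2 fold change was −0.01 in shG9a1 and −0.02 in shG9a4, with 44 and 51 of the 75 below 0. Of all 18435 genes, 9173 and 9062 lay below 0, and these directions were not tested as a set either. The 1 gene was ATP5MF, a membrane subunit of ATP synthase, which had 35.0, 32.0 and 32.6 CPM in shG9a1 and 32.4, 30.1 and 34.1 CPM in shG9a4, against 37.3, 36.6 and 36.3 CPM in shSCR. Its log2 fold change was −0.15 ± 0.07 in shG9a1 (adjusted p = 0.714 in edgeR) and −0.19 ± 0.07 in shG9a4 (adjusted p = 1.00). The next smallest p-values of both lists in shG9a4 were those of ATP5ME, another membrane subunit of ATP synthase, at −0.16 ± 0.08, and of TFB2M at −0.16 ± 0.08 (adjusted p = 1.00 in edgeR for each). DESeq2 and limma voom called 0 genes of both lists in either hairpin, and DESeq2 gave no adjusted p for 1 gene of each list in shG9a4. Over all genes they called 0.391% and 0.038% in shG9a1, and 0.114% and 0.0271% in shG9a4. The fold changes in both hairpins are taken against the same 3 shSCR libraries.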

How the data were processed

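Per the labels' protocols, total RNA was made into stranded libraries with ribosomal RNA removed. The authors deposited whole-number counts of read pairs per gene for each library, in the column layout of STAR, which gives an unstranded, an opposite-strand and a sense-strand count. GRCh37, hg19 and STAR 2.5.2a are among the names listed, with no stated role, per the submitters' processing notes. No annotation release is named in the sources used here. The authors' comparison tables, 1 per hairpin, list none of these genes by symbol and were not used here.

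Genes were tested with edgeR 4.0.16 (R 4.3.3): TMM scaling, filterByExpr, a mean per group in a fit of all 9 libraries with 6 residual degrees of freedom, the two-sided quasi-likelihood F-test, and Benjamini-Hochberg adjustment over the 18435 genes kept, at 0.05. CPM are counts per 1000000 gene reads, scaled by TMM, and opposite-strand counts used the same scaling. The 4 summary rows that name no gene stayed out; they held 2.75 to 4.34% (unmapped), 4.57 to 5.49% (multimapped), 12.2 to 15.4% (no gene) and 2.49 to 2.68% (ambiguous) of pairs. Gene lengths, strands and sequences came from GENCODE 29 on GRCh38, which is not the build of the files, so coordinates were left out. On simulated data, the edgeR fit with the replicate block was tested for shG9a1 against shSCR, as was the replicate number term. The fit with a mean per group was not tested in this way. DESeq2 1.42.0 and limma 3.58.1 served as alternatives.

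The members and lists were chosen with earlier results of these data known. By the rule for naming genes, all 37 members were described, with values per library for those tested; of the nuclear lists, TFAM, POLRMT and LRPPRC were named, with genes past the threshold or, failing these, the 3 smallest p-values per hairpin. The replicate numbers pair the libraries by their data only: deviations from group means had correlations from 0.178 to 0.461 over the 9 same-number pairs. Over the 18 pairs of different numbers they ran from −0.327 to 0.169, and taking deviations from means of 3 libraries itself pushes these down. No 2 libraries of a group were duplicates (chi-square per degree of freedom 25.2 to 78.9 over genes with at least 20 reads).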

Additional observations from a re-analysis of the deposited data

How the results depend on the processing

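The 0 calls on the sense strand in the 3 comparisons, and those on the opposite strand and in both nuclear lists in each hairpin against shSCR, stayed at 0 under the alternatives run for each (DESeq2 size factors, no filter, unstranded counts for the sense results, DESeq2, limma voom, scaling without the mitochondrial genes, only the groups compared, the replicate block and each library left out). The block left 0 members called, where it called 0.776% of all genes in shG9a1 and 0.0759% in shG9a4. It gave medians of the 13 mRNAs of −0.01 in shG9a1 and 0.15 in shG9a4. The fit without a filter called 0.631% of all genes in shG9a1 and 0.081% in shG9a4. The replicate number term called 3 of 23 genes, 18 of 30 without a filter (8.01% of all genes), 2 of 23 with DESeq2 (8.66%) and with limma voom (7.21%), and 0 to 6 of 23 with a library left out (2.31 to 11.2%). Unstranded counts put the mean share of the 13 mRNAs at 0.623% in shG9a1 and 0.720% in shG9a4, against 0.654% in shSCR. Log2 fold changes turned their sign, in genes not called in the hairpin comparisons, for shG9a1 at 0.0032 for MT-ND5 (unstranded), 0.070 for MT-ND6 and −0.0040 for MT-TP (limma voom) and 0.060 for MT-ND6 (replicate block), and for shG9a4 at −0.028 for MT-RNR2 and −0.11 for MT-ATP8 (limma voom) and −0.0027 for MT-ATP8 (replicate block). Leaving out each library in turn gave log2 fold changes in shG9a1 of MT-TQ −0.34 to 0.040, MT-ND2 −0.072 to 0.20, MT-TW −0.022 to 0.63, MT-TA −0.21 to 0.44, MT-TY −0.38 to 0.13, MT-CO1 −0.20 to 0.099, MT-CO2 −0.12 to 0.10, MT-CO3 −0.17 to 0.038, MT-ND3 −0.12 to 0.11, MT-ND4L −0.024 to 0.13, MT-ND4 −0.19 to 0.19, MT-ND5 −0.18 to 0.18, MT-ND6 −0.19 to 0.32, MT-TE −0.29 to 0.52, MT-CYB −0.19 to 0.085, MT-TT −0.037 to 0.43 and MT-TP −0.096 to 0.18. In shG9a4 they were MT-RNR1 −0.34 to 0.58, MT-RNR2 −0.23 to 0.25, MT-ND1 −0.082 to 0.44, MT-ND2 −0.19 to 0.45, MT-TA −0.32 to 0.55, MT-TY −0.038 to 0.63, MT-CO1 −0.038 to 0.27, MT-CO2 −0.039 to 0.25, MT-ATP8 −0.68 to 0.48, MT-ATP6 −0.19 to 0.49, MT-ND3 −0.045 to 0.34, MT-ND4L −0.21 to 0.35, MT-ND4 −0.29 to 0.27, MT-ND5 −0.15 to 0.40, MT-ND6 −0.059 to 0.48, MT-CYB −0.14 to 0.21 and MT-TT −0.43 to 0.051. On the opposite strand they were, in shG9a1, MT-ND5 −0.091 to 0.25 and MT-CYB −0.19 to 0.14, and in shG9a4 MT-ND5 −0.0031 to 0.41 and MT-CYB −0.14 to 0.52. The difference in the sense share of MT-ND6 went over −0.922 to 1.17 percentage points in shG9a1 and −1.12 to 1.35 in shG9a4. The cause of these shifts was not tested. Low read numbers limit the tRNAs, and 3 libraries a group limit all of the comparisons.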
